A study of Homo sapiens with 6 samples.

Results

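Slit-Robo and netrin-DCC-UNC5 guidance genes were compared between 231-BR cells and MDA-MB-231 cells. The 10 genes were taken by symbol from a table of 17039 genes: the slit ligands SLIT2 and SLIT3, their receptors ROBO1 and ROBO2, the netrin ligands NTN1 and NTN4, and the netrin receptors DCC, NEO1, UNC5B and UNC5C. MDA-MB-231 is a human triple-negative breast cancer line, and 231-BR is its variant that metastasizes to the brain in animals. Poly(A) RNA of 3 libraries per line was sequenced, with expression given as FPKM, a fragment count scaled by the length of the transcript and by the mapped fragments of the library. Both lines were grown in DMEM with FBS and penicillin-streptomycin, but G418 was present only for 231-BR, so that line and drug cannot be told apart. The labels do not say that the libraries of a line came from separate cultures, so the p-values may measure technical spread only.

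Slits are large secreted glycoproteins that bind the immunoglobulin-type Robo receptors and repel growing axons and migrating cells. Netrins are secreted proteins related to laminins. Axons are attracted by netrin through DCC and its relative neogenin (NEO1) and repelled through the UNC5 receptors, and DCC and UNC5 are also known as dependence receptors, which can signal cell death when no ligand is bound. The same genes act outside the nervous system, in mammary duct formation and in blood vessels.

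In 231-BR cells, the ligands SLIT2 and NTN4 and the low-expressed receptors ROBO2 and DCC rose. The receptors of the chosen set that both lines expressed at several FPKM, ROBO1 and NEO1, showed a small increase and no detected change. ROBO3 and ROBO4, receptors outside the set that both lines also expressed, rose with log2 fold changes of 1.54 and 0.88. ROBO3 also belongs to the group picked by the study. SLIT2 increased from 13.2 ± 0.553 to 40.2 ± 0.832 FPKM and NTN4 from 2.87 ± 0.140 to 18.5 ± 0.140 FPKM (SD, n = 3 each). DCC, at 0.76 to 0.86 FPKM in 231-BR libraries, was at 0 in the table for each library of the other line. SLIT3, NTN1 and UNC5C stayed at or under 0.05 FPKM in all 6 libraries.

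The start regions of SLIT2, NTN4, ROBO2 and DCC are shown because these 4 genes rose together. Each run holds the 250 bases before a RefSeq transcription start on GRCh38.p14, 5′ to 3′ on the strand of the gene, and the capitals mark every CG dinucleotide.
SLIT2, chr4:20251655-20251904, plus strand: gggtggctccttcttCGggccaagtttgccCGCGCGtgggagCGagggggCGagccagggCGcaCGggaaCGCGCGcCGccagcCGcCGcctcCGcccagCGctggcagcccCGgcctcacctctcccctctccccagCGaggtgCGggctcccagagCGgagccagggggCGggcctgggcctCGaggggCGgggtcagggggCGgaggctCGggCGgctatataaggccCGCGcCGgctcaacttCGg
NTN4, inner start, chr12:95790765-95791014, minus strand: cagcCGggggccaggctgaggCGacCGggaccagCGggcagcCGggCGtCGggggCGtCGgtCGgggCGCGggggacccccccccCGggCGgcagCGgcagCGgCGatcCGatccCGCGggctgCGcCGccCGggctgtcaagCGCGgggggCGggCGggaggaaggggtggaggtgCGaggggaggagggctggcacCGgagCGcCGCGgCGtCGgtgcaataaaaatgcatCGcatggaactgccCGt
NTN4, outer start, chr12:95791156-95791405, minus strand: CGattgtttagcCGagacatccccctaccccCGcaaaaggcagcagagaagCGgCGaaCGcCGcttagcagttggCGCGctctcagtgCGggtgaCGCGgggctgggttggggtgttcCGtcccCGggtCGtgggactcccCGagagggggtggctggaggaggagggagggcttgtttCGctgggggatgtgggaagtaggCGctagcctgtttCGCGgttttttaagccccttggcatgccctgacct
ROBO2, chr3:76310630-76310879, plus strand: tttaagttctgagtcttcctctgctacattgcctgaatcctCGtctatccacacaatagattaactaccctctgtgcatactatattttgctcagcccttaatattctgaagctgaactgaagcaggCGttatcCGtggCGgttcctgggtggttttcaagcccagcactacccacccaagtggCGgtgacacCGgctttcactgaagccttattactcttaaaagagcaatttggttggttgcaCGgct
DCC, chr18:52339947-52340196, plus strand: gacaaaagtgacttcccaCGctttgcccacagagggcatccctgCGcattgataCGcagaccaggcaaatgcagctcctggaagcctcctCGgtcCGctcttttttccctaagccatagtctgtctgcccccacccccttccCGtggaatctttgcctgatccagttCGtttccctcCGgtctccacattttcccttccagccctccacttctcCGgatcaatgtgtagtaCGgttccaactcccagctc
The 250-base windows held 30 CG dinucleotides for SLIT2, 36 and 20 for the inner and outer starts of NTN4, 10 for DCC and 7 for the ROBO2 start shown. The median over 35116 such windows of 27305 genes was 11. As many CG as in the inner NTN4 window were found in 4.9% of all windows, and as many as in the SLIT2 window in 12.4%, against 52.2% for DCC and 58.9% for this ROBO2 start. The 4 genes had starts on either side of the median in CG content. A second ROBO2 window, on chromosome 3 at 77039849 to 77040098, held 27 CG but is not shown because 213 of its bases are exonic in GENCODE 29. The receptor genes with little or no difference were spread in the same way, with 28 CG for NEO1 and 9 and 12 for the starts of ROBO1, and SLIT3 had 16. In the NEO1 window 192 bases are exonic, and in the UNC5C window, which held 17 CG, 233 are. The DCC window shown holds 25 exonic bases. Windows were found for 8 of the 10 genes. The FPKM values do not say which start was used, and the CG counts are descriptions of the sequence only.

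The values were compared as log2(FPKM + 0.1) with limma's moderated test and Benjamini-Hochberg adjustment over the 13465 genes with a mean of at least 0.1 FPKM over the 6 libraries. A positive log2 fold change means a higher value in 231-BR cells, and the added 0.1 draws the folds of low genes toward 0. The summed FPKM ranged from 465020 to 472007 in 231-BR and from 486937 to 496420 in MDA-MB-231 libraries. Read counts were not used here, so the depth is unknown, and the smallest value above 0 was 0.01 FPKM in every library. Of the marker genes, KRT8, KRT18 and VIM were abundant in both lines, with log2 fold changes of -0.43, -0.37 and 0.15. EPCAM rose from 5.06 to 8.70 FPKM (log2 fold change 0.77, adjusted p = 9.0e-06 from limma), while CDH1 was at most 0.03 FPKM and PGR at most 0.07 FPKM in every library, and ERBB2 was 9.88 FPKM in 231-BR and 4.95 FPKM in MDA-MB-231 cells on average. ESR1 was 0.74 to 1.08 FPKM over the 6 libraries. With bulk RNA, a change in the number of expressing cells and a change in RNA per cell cannot be told apart.

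**Figure D1:**
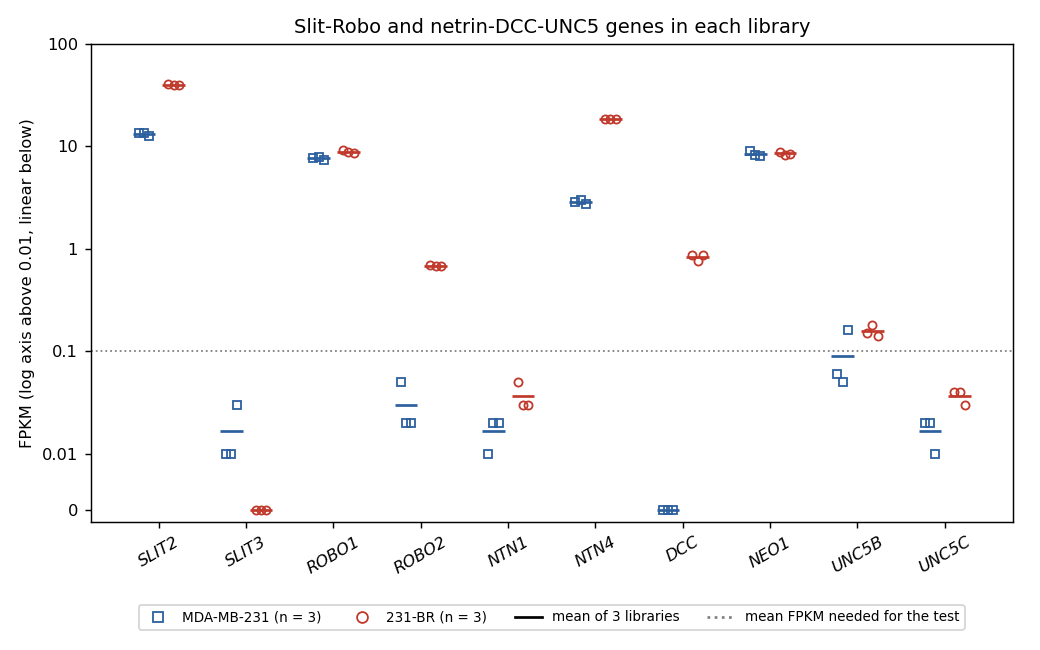
FPKM of the 10 guidance genes in each library, on an axis that is logarithmic above 0.01 and linear below, with squares for MDA-MB-231, circles for 231-BR, short lines for the mean of 3 libraries and a dotted line at the mean of 0.1 FPKM needed for the test. The points of SLIT2, NTN4, ROBO2 and DCC are apart between the lines, those of NEO1 and UNC5B overlap, and SLIT3, NTN1 and UNC5C lie under the dotted line.

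Of the 10 genes, 7 could be tested, and 5 of these had an adjusted p under 0.05 with higher values in 231-BR cells, while 0 were lower with limma, also at an unadjusted p under 0.05. Over all genes tested, 44.4% were called higher and 32.9% lower by this criterion, in counts 5973 and 4433, which became 4844 and 5715 after quantile normalization. With an absolute log2 fold change over 1 in addition, 4 genes were higher, with DCC among them by its fitted value, where 10.9% of all genes tested were called higher and 4.34% lower. The study asked for an FPKM of at least 1 as well. Asked of the mean in both lines, this left SLIT2 and NTN4, with 4.68% of all genes tested called higher in this way. For 5 of the 7 tested genes, every library of one line lay above every library of the other, as it did for 78.4% of all genes tested. The 7 genes had a median log2 fold change of 1.60, the value of SLIT2, against 0.08 for all genes tested. SLIT2, ROBO2, NTN4, DCC and UNC5C belong to the axon guidance group that the study picked on the libraries compared here, and their direction cannot count as independent evidence. ROBO2, DCC and UNC5B had means under 0.1 FPKM in MDA-MB-231 cells and passed the filter on low values through 231-BR cells only, and ROBO2 and DCC, close to 0 in the other line, had to differ once they had passed it.

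Among the slit ligands, SLIT2 was measured at 41.05, 40.04 and 39.40 FPKM in 231-BR libraries 1 to 3 and at 13.46, 13.55 and 12.55 FPKM in MDA-MB-231 libraries 1 to 3. The lowest 231-BR library stood far above the highest MDA-MB-231 library. The log2 fold change was 1.60 (standard error 0.037, 95% interval 1.52 to 1.68, adjusted p = 2.0e-10 from limma), and the ratio of the mean FPKM was 3.05. SLIT2, on chromosome 4 from 20253260 to 20620561 in GENCODE 29 (GRCh38), was the most abundant of the 10 genes in both lines. SLIT3, on chromosome 5 from 168661733 to 169301129, was listed at 0 in all 231-BR libraries and at 0.01, 0.01 and 0.03 FPKM in MDA-MB-231 libraries. With values this close to the last decimal of the table, SLIT3 was not tested. SLIT2 made up 100% of the summed slit FPKM in each 231-BR library and 99.8% to 99.9% in MDA-MB-231 libraries.

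The Robo receptors differed from each other in level and in change. ROBO1, the main Robo in these cells among the 2 compared, had 9.17, 8.76 and 8.59 FPKM in 231-BR libraries and 7.76, 7.96 and 7.37 FPKM in MDA-MB-231 libraries. These values did not overlap, but the lowest 231-BR and highest MDA-MB-231 libraries lay close together. The log2 fold change was 0.20 (standard error 0.048, adjusted p = 0.0037 from limma), and it was 0.06 with an adjusted p of 0.25 after quantile normalization. ROBO2 had 0.69, 0.68 and 0.68 FPKM in 231-BR libraries and 0.05, 0.02 and 0.02 FPKM in MDA-MB-231 libraries. All 231-BR values of ROBO2 were within 0.01 FPKM of each other and far above the other line, whose values were a few units of the last decimal. The log2 fold change was 2.60 (95% interval 2.22 to 2.97, adjusted p = 2.4e-07 from limma). Its size rests on the pseudocount, since it was 0.71 with a pseudocount of 1 and 4.20 with 0.01. ROBO2 passed the filter on low values only through 231-BR cells, so its direction was fixed once it was tested. ROBO2 made up 7.0% to 7.3% of the ROBO1 and ROBO2 total in 231-BR libraries and 0.25% to 0.64% in MDA-MB-231 libraries. The log2 ratio of ROBO1 to ROBO2 was lower in every 231-BR library, with an exact permutation p of 0.1, the smallest that 3 against 3 libraries allow, and an adjusted p of 0.125 over 5 pairs. This ratio follows the ROBO2 values and is no separate evidence. ROBO1 and ROBO2 lie next to each other on chromosome 3, at 78597240 to 79767815 and 75906695 to 77649964 in GENCODE 29, and both span more than a megabase.

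Of the netrins, NTN4, a netrin of basement membranes that binds laminin chains, had 18.39, 18.53 and 18.67 FPKM in 231-BR libraries and 2.87, 3.01 and 2.73 FPKM in MDA-MB-231 libraries. The spread within each line was small beside the gap between the lines. The log2 fold change was 2.65 (standard error 0.049, 95% interval 2.54 to 2.76, adjusted p = 4.6e-11 from limma), and the ratio of the mean FPKM was 6.46. With pseudocounts of 1 and 0.01 the log2 fold change was 2.34 and 2.69. NTN4 lies on chromosome 12 from 95657807 to 95791152. NTN1, the netrin best known from the floor plate of the neural tube, had 0.05, 0.03 and 0.03 FPKM in 231-BR libraries and 0.01, 0.02 and 0.02 FPKM in MDA-MB-231 libraries. NTN1, on chromosome 17 from 9021542 to 9244000, was too low for the test, and at least 99.3% of the summed netrin FPKM belonged to NTN4 in every library.

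**Figure D2:**
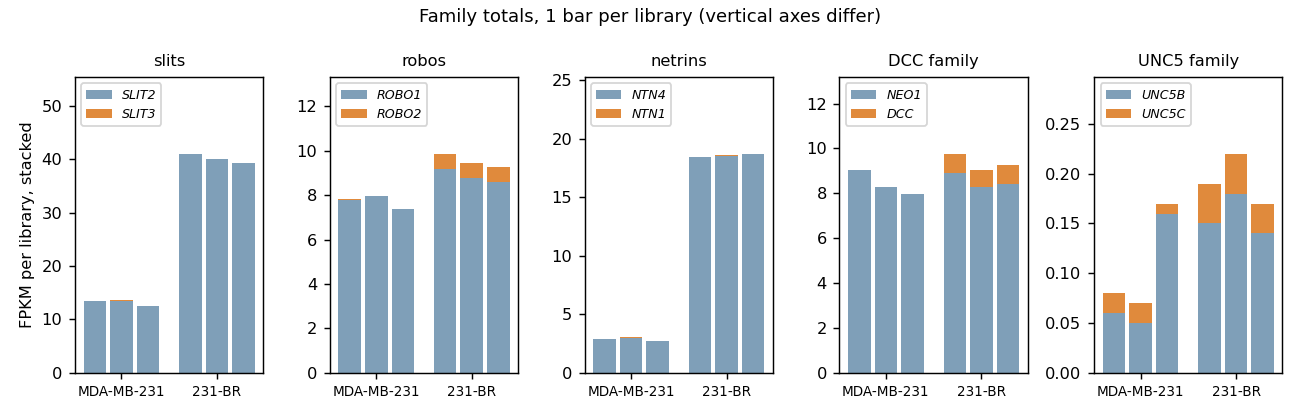
Stacked FPKM of the members of each family, 1 bar per library, MDA-MB-231 at left and 231-BR at right in each panel, with vertical axes that start at 0 and differ between panels. SLIT2 and NTN4 fill the slit and netrin bars, and ROBO2 and DCC form a visible part of the Robo and DCC family bars in 231-BR libraries only.

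Among the DCC family, DCC was listed at 0.86, 0.76 and 0.86 FPKM in 231-BR libraries and at 0 in MDA-MB-231 libraries 1, 2 and 3. No fold is given against a line listed at 0. The limma test of DCC gave an adjusted p of 3.5e-08, with DCC higher in 3 of 3 libraries of 231-BR cells. DCC passed the filter on low values only through 231-BR cells, so its direction was fixed once it was tested. DCC lies on chromosome 18 from 52340172 to 53535903, and 190 of its exonic bases are shared with LINC01917 on the opposite strand, from which reads could not be told apart if counting ignored strand. Neogenin, NEO1, which also binds repulsive guidance molecules, was the main member of the pair, with 8.90, 8.26 and 8.40 FPKM in 231-BR libraries and 9.05, 8.27 and 7.97 FPKM in MDA-MB-231 libraries. The libraries of the lines were intermingled. The log2 fold change of NEO1 was 0.02 with a 95% interval of -0.11 to 0.14 (adjusted p = 0.80 from limma). NEO1 lies on chromosome 15 from 73051710 to 73305206. DCC made up 8.4% to 9.3% of the DCC and NEO1 total in 231-BR libraries. The exact permutation p for the ratio of DCC to NEO1 was 0.1, with an adjusted p of 0.125 over the 5 pairs. With DCC listed at 0 in MDA-MB-231 libraries, this ratio is no separate evidence.

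The UNC5 receptors, which mediate repulsion by netrin, were low in both lines. UNC5B, known from endothelial cells, had 0.15, 0.18 and 0.14 FPKM in 231-BR libraries and 0.06, 0.05 and 0.16 FPKM in MDA-MB-231 libraries. The third MDA-MB-231 library reached the level of 231-BR cells, so the lines overlapped. The log2 fold change was 0.48 (95% interval -0.07 to 1.02, adjusted p = 0.099 from limma), and it was 0.73 with an adjusted p of 0.014 without MDA-MB-231 replicate 3. That replicate held the highest value of its line, and UNC5B passed the filter on low values only through 231-BR cells. The lower adjusted p thus cannot count as evidence of an increase. UNC5C had 0.04, 0.04 and 0.03 FPKM in 231-BR libraries and 0.02, 0.02 and 0.01 FPKM in MDA-MB-231 libraries. These libraries did not overlap, but they differ by steps of the last decimal, and UNC5C was not tested. UNC5B lies on chromosome 10 from 71212570 to 71302864 and UNC5C on chromosome 4 from 95162504 to 95549206.

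**Figure D3:**
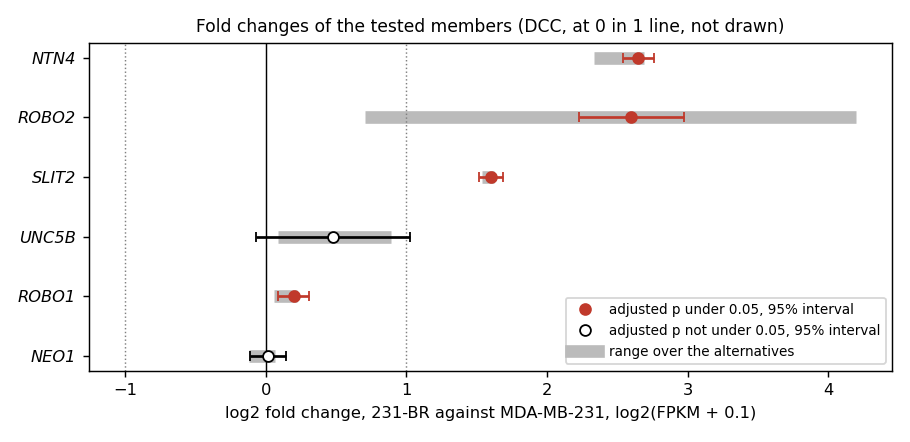
Log2 fold changes, 231-BR against MDA-MB-231, of 6 tested genes with 95% intervals from limma, filled where the adjusted p was under 0.05, and in grey the range over the alternative settings. NTN4, ROBO2 and SLIT2 lie to the right of 1, the range of ROBO2 is widest, and the interval of NEO1 includes 0.

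The order of levels differed between the lines, with DCC last in MDA-MB-231 cells and directly after NEO1 in 231-BR cells and NTN4 moving ahead of ROBO1 and NEO1. In 231-BR cells, the order by mean FPKM was SLIT2, NTN4, ROBO1, NEO1, DCC, ROBO2, UNC5B, NTN1 with UNC5C, and SLIT3. The neighbours ROBO1 and NEO1, with 8.84 and 8.52 FPKM, overlapped between libraries, as did NTN1 and UNC5C, and the other neighbours did not. In MDA-MB-231 cells, NEO1 with 8.43 FPKM and ROBO1 with 7.70 FPKM came directly after SLIT2 and ahead of NTN4 with 2.87 FPKM. UNC5B, ROBO2, SLIT3, NTN1 and UNC5C followed, each overlapping the next, and DCC was last. SLIT2 stood above 87.7% of all genes in the table in 231-BR cells and above 69.2% in MDA-MB-231 cells, and NTN4 above 74.8% and 45.5%.

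Summed by family, slits were 40.2 ± 0.832 FPKM in 231-BR and 13.2 ± 0.542 FPKM in MDA-MB-231 cells, and netrins 18.6 ± 0.130 and 2.89 ± 0.140 FPKM (SD, n = 3 each). The Robo sum, of ROBO1 and ROBO2 only, was 9.52 ± 0.304 against 7.73 ± 0.304 FPKM. The sum of DCC and NEO1 was 9.35 ± 0.378 against 8.43 ± 0.557 FPKM. Slit, Robo and netrin sums did not overlap between the lines, and the exact permutation p was 0.1 for each, the smallest possible, with an adjusted p of 0.17 over 5 families. The exact permutation p was 0.2 for the DCC family and for the UNC5 family, whose libraries overlapped. The sums of the ligands differed by ratios of 3.04 for slits and 6.43 for netrins. Those of the receptors differed by 1.23 for ROBO1 with ROBO2, 1.11 for the DCC family and 1.81 for the UNC5 family. ROBO3 and ROBO4, left out of the Robo sum, had ratios of the mean FPKM of 2.99 and 1.84. The UNC5 sums were low, at 0.17 to 0.22 FPKM in 231-BR and 0.07 to 0.17 FPKM in MDA-MB-231 libraries.

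The wider list held 68 other guidance genes by role, of which 66 were found and 52 tested. At an adjusted p under 0.05, 28 were higher and 14 lower in 231-BR cells, beside 44.4% and 32.9% of all genes tested. These counts were 26 and 17 after median-of-ratios scaling and 26 and 16 after quantile normalization. Over all genes tested, 5555 were higher and 4889 lower of 13458 after median-of-ratios scaling. After quantile normalization, 4844 were higher and 5715 lower of 13465. The median over the 52 genes was 0.18 on the log2 scale. Past a log2 fold change of 1 in either direction, 6 were higher (FLRT3, ROBO3, ADGRL3, MAGED1, ARHGAP39 and ENAH) and 1 was lower (GPC1). These were 11.5% and 1.92% of the 52 genes, beside 10.9% and 4.34% of all genes tested. FLRT3 and ADGRL3 passed the filter on low values through 231-BR cells only, so their direction was fixed once they were tested. Of the 66 genes, 5 belong to the guidance group that the study picked on these libraries, among them ROBO3, SRGAP1, FYN and ABLIM1. Their direction cannot count as independent evidence.

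The other receptors that could be tested, ROBO3, ROBO4, DSCAM and ADGRL3, were higher in 231-BR cells, as were 44.4% of all genes tested. ADGRL3 could be tested only because it was high in 231-BR cells. ROBO3, a divergent Robo that controls midline crossing of axons, averaged 8.06 ± 0.101 FPKM in 231-BR and 2.70 ± 0.085 FPKM in MDA-MB-231 libraries (SD, n = 3 each). Its log2 fold change was 1.54 (adjusted p = 3.0e-09, limma). ROBO3 belongs to the guidance group of the study, so its direction is no independent evidence. ROBO4, the Robo of endothelial cells, was the most abundant Robo receptor in both lines, with 28.5 ± 0.046 FPKM in 231-BR and 15.5 ± 0.157 FPKM in MDA-MB-231 libraries (SD, n = 3 each). It rose by 0.88 on the log2 scale. The endothelial markers CDH5 and VWF were at most 0.03 FPKM in every library, and PECAM1 was 0.37 to 0.48 FPKM in 231-BR and 0.15 to 0.21 FPKM in MDA-MB-231 libraries. The summed level of the 3 endothelial markers was 0.41 to 0.50 FPKM in 231-BR and 0.20 to 0.22 FPKM in MDA-MB-231 libraries. Of the exonic bases of ROBO4, 744 and 448 are shared with the antisense genes AP003501.1 and AP003501.2, so its reads may be mixed with theirs. ADGRL3, a latrophilin that binds FLRT and UNC5 proteins, rose from 0.017 to 0.21 FPKM, with a log2 fold change of 1.41, and DSCAM, another netrin receptor, from 0.493 to 0.93 FPKM, with a log2 fold change of 0.80. UNC5D was listed at 0.01 to 0.03 FPKM in 231-BR libraries and at 0 in MDA-MB-231 libraries, and UNC5A, LRRC4 and LRRC4C were at most 0.02 FPKM in any library.

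Among the other ligands, 4 of 5 tested were higher and 1 was lower in 231-BR cells, beside 44.4% and 32.9% of all genes tested. FLRT3, among the 4, could be tested only because it was high in 231-BR cells. FLRT3, a membrane ligand of UNC5 receptors, rose from 0.02 to 0.30 FPKM, with a log2 fold change of 1.74. FLRT2, of the same family, rose from 6.84 ± 0.186 to 13.2 ± 0.556 FPKM (SD, n = 3 each), with a log2 fold change of 0.94, and NTNG2, a membrane-bound netrin, had a log2 fold change of 0.99. RGMB, a ligand of neogenin, was the most abundant ligand of the list, with 47.4 FPKM in 231-BR and 34.9 FPKM in MDA-MB-231 cells and a log2 fold change of 0.44. FLRT1 fell by 0.45 on the log2 scale, from 0.373 to 0.247 FPKM. RGMA had 0.10, 0.14 and 0.07 FPKM in 231-BR libraries and was listed at 0 in MDA-MB-231 libraries, but its mean was under the filter. SLIT1, NTN5, NTNG1, DRAXIN and HJV were at most 0.07 FPKM in any library.

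Of the 5 surface partners, GPC1, a glypican whose heparan sulfate can bind slits, fell from 8.58 ± 0.387 to 3.17 ± 0.232 FPKM (SD, n = 3 each). Its log2 fold change was -1.41, and the protease ADAM10 had a log2 fold change of -0.19. Dystroglycan (DAG1) rose with a log2 fold change of 0.13, but it did not pass the test after median-of-ratios scaling (0.08, adjusted p = 0.071) or quantile normalization (0.06, adjusted p = 0.14). SDC1 had a log2 fold change of 0.07 with an adjusted p of 0.085. Of 22 tested Robo effectors, 11 were higher and 7 lower. The largest increases were those of ARHGAP39, the vilse GTPase-activating protein, with a log2 fold change of 1.05, of ENAH, an actin regulator of the Ena/VASP family, with 1.03, and of the myosin MYO9B, with 0.95. The largest decreases were those of the kinase ABL1, with -0.47, of the microtubule-binding protein CLASP1, with -0.47, and of the adaptor NCK2, with -0.32. SRGAP1, a Slit-Robo GTPase-activating protein of the guidance group of the study, had a log2 fold change of 0.92. Of 16 tested effectors of DCC and UNC5, 7 were higher, led by MAGED1 with 1.09, the kinase FYN with 0.93 and ABLIM1 with 0.84, and 4 were lower, led by the ubiquitin ligase SIAH1 with -0.70, ABLIM3 with -0.37 and PITPNA with -0.24. FYN and ABLIM1, like SRGAP1, belong to the guidance group that the study picked on these libraries. The downstream genes moved in both directions, as all genes tested did. Of the tested Robo effectors, 50% were higher and 31.8% lower, and of the DCC and UNC5 effectors 43.8% and 25%. Over all genes tested, these shares were 44.4% and 32.9%. The median log2 fold changes were 0.09 for Robo effectors and 0.13 for DCC and UNC5 effectors, near the 0.08 of all genes tested.

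**Figure D4:**
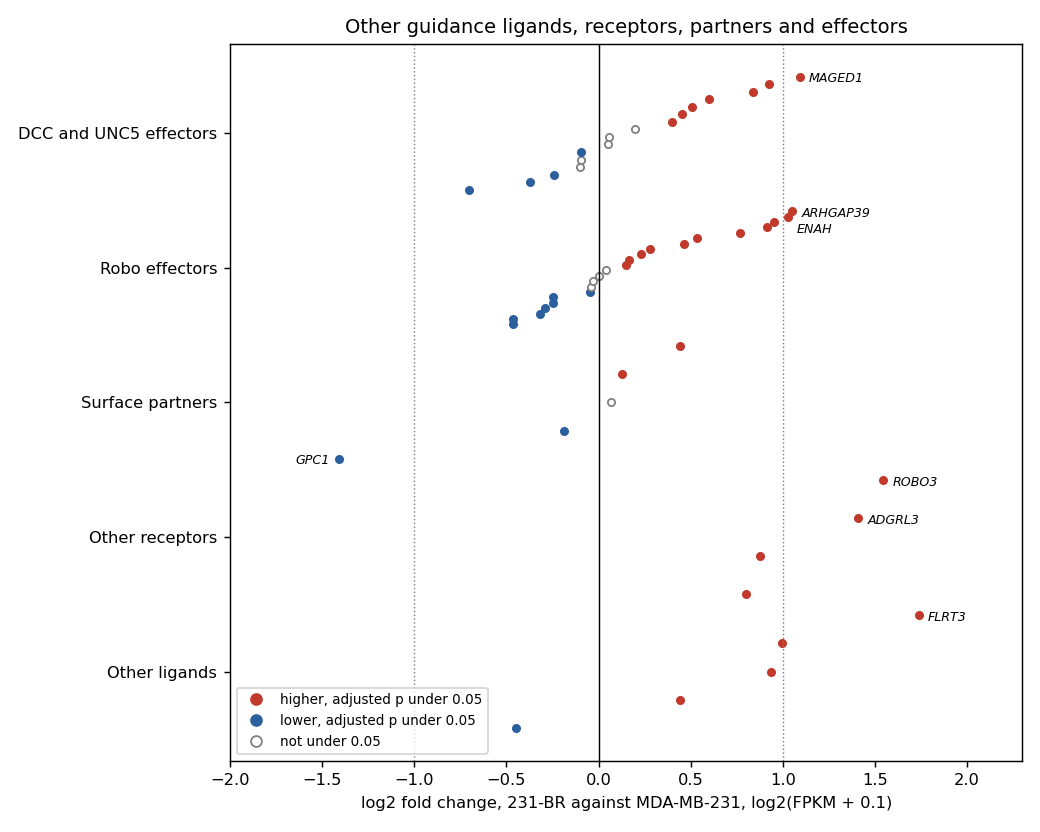
Log2 fold changes, 231-BR against MDA-MB-231, of the 52 tested genes of the wider list by role, red where higher and blue where lower at an adjusted p under 0.05, open where not under it, with dotted lines at -1 and 1 and names for genes beyond them. The 4 tested receptors lie to the right of 0, and the effectors spread to both sides. Of these receptors, ADGRL3 was tested only because it was high in 231-BR cells, and ROBO3 belongs to the group picked by the study.

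Neuronal markers were read beside DCC and ROBO2, since both receptors are known from neurons. MAP2 was 1.56 ± 0.015 FPKM in 231-BR and 0.227 ± 0.031 FPKM in MDA-MB-231 cells, and TUBB3 was 53.0 ± 1.48 and 21.5 ± 0.768 FPKM (SD, n = 3 each), so both rose, with log2 fold changes of 2.35 and 1.30. SYP overlapped between the lines, and RBFOX3 was at most 0.16 FPKM. The summed level of these 4 markers was 53.1 to 56.1 FPKM in 231-BR and 21.2 to 22.8 FPKM in MDA-MB-231 libraries, most of it TUBB3. The 3 glial markers summed to at most 0.09 FPKM in any library, with SOX10 at 0 in all but 1 library. The part of these markers in the differences of DCC and ROBO2 was not tested.

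Fold changes of neighbouring genes were set beside the members, with 20 tested genes on either side in the gene order of RefSeq. The median log2 fold change of the 40 neighbours was -0.09 for SLIT2, 0.22 for ROBO2 and 0.49 for NTN4, and 37 of the 40 neighbours of NTN4 were above 0. SLIT2, ROBO2 and NTN4 lay above the upper quartile of their neighbours, which was 0.38, 0.72 and 0.79. ROBO1, at 0.20, and NEO1, at 0.02, lay between the quartiles of theirs, with medians of 0.24 and 0.06. The neighbours of DCC on chromosome 18 had a median of 0.56, with 29 of 40 above 0, and those of UNC5C a median of 0.52, with 39 of 40 above 0. UNC5B, at 0.48, was above the upper quartile of its neighbours, which was 0.34. The part of the neighbourhood in the differences of the members was not tested.

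**Figure D5:**
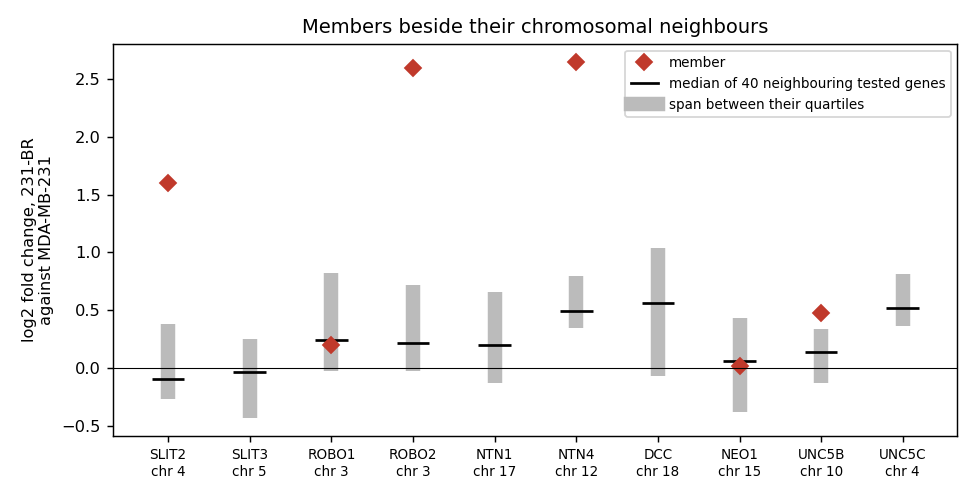
Log2 fold change of each tested member with a fold (diamond) beside the median (line) and the span between the quartiles (grey bar) of its 40 neighbouring tested genes, by gene and chromosome. SLIT2, ROBO2, NTN4 and UNC5B stand above the grey bars, ROBO1 and NEO1 inside them, and DCC, SLIT3, NTN1 and UNC5C have no diamond because no fold is given.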

How the data were processed

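RNA of 3 libraries of 231-BR and 3 of MDA-MB-231 cells was used, grouped by title, since the cell line label runs from 231 to 233 over the replicates of each line. The authors sequenced paired reads on a BGISEQ-500, filtered them with SOAPnuke, and aligned them with HISAT2 2.0.4 and Bowtie2 2.2.5, with GRCh38.p12 named in the submitters' processing notes. The deposited values are FPKM with 2 decimals. The program that computed them is not given in the sources used here. Scaling by mapped fragments means that a few abundant genes can shift all others, which the scaling alternatives address.

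Values were put on the scale log2(FPKM + 0.1), and the lines were compared in limma 3.58.1 (R 4.3.3) by lmFit, then eBayes with its trend option, cell line being the only term. Genes under a mean of 0.1 FPKM were left out, and p-values were adjusted (Benjamini-Hochberg) over the rest. The fit was tested on simulated data. Sums and ratios of members were compared by 2-sided exact permutation tests over libraries (scipy 1.17.1). Figures were made with matplotlib 3.10.9. Gene positions came from GENCODE 29, gene order and promoter windows from RefSeq. All 10 genes are named, and of the wider list every ligand and receptor, the 3 largest increases and decreases of each other role at an adjusted p under 0.05, and genes past an absolute log2 fold change of 1. SRGAP1 was named after its value was seen. The result of 1 surface partner is not reported here. The genes and lists were chosen with earlier results of these data known. NTN3, DSCAML1 and the glial marker OLIG2 were not analysed here.

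The alternatives were pseudocounts of 1 and 0.01, no filter, quantile normalization, median-of-ratios scaling, a stricter filter (mean FPKM of 1), no trend, a replicate block, stricter calls, and each library left out in turn.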

Additional observations from a re-analysis of the deposited data

How the results depend on the processing

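SLIT2, NTN4, ROBO2 and DCC kept their direction and an adjusted p under 0.05 under every alternative in which they were tested. ROBO2 and DCC passed the filter on low values only through the variant that metastasizes to the brain. Where that filter was kept, both had to differ once tested, so their stability there cannot count as evidence. Without the filter, the adjusted p from limma was 2.2e-06 for ROBO2 and 3.4e-07 for DCC. ROBO2, DCC and UNC5B were not tested at a filter of a mean FPKM of 1. ROBO1 had a log2 fold change of 0.06 after quantile normalization (adjusted p = 0.25), which moved the median of all genes by -0.13. NEO1 changed sign, with -0.033 after median-of-ratios scaling and -0.12 after quantile normalization, and the summed DCC family differed by -0.036 FPKM after the latter. Members higher with a log2 fold change over 1 numbered 2 with a pseudocount of 1, with a filter at a mean FPKM of 1, and with a mean of at least 1 FPKM in both lines, and at an adjusted p alone 3 with that filter. In the wider list, 1 gene was higher past this fold with a pseudocount of 1, 3 after quantile normalization and 2 at a log2 fold change over 1.5, where 0 were lower. Over all 13465 genes tested, 820 were higher and 296 lower past 1.5. With a filter at a mean FPKM of 1, 5063 of 11124 genes were higher at an adjusted p alone. Shares of all genes past a log2 fold change of 1 are not given with this filter, a pseudocount of 1 or quantile normalization. These counts thus cannot be read as particular to guidance genes. The cause of the changes was not tested, except that a higher pseudocount lowers every fold and a filter tests fewer genes.

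With each library left out in turn, log2 fold changes ran from 1.57 to 1.62 for SLIT2, 2.62 to 2.68 for NTN4, 2.55 to 2.71 for ROBO2, 0.17 to 0.22 for ROBO1, -0.023 to 0.068 for NEO1 and 0.33 to 0.73 for UNC5B. NEO1 was below 0 without 231-BR replicate 1 (-0.015) and without MDA-MB-231 replicate 3 (-0.023). UNC5B passed the test without MDA-MB-231 replicate 3, the highest of its line for this gene, which cannot count as evidence of an increase. Without the filter on low values, SLIT3, NTN1 and UNC5C had adjusted p-values of 0.095, 0.090 and 0.061.

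No pairing of the libraries by replicate number was seen. Deviations from the line means correlated at 0.087, -0.040 and -0.11 for numbers 1, 2 and 3, and at -0.15 to 0.18 between unlike numbers. With 3 libraries per line, these correlations cannot show that the libraries were unpaired. With a replicate block, SLIT2 had a log2 fold change of 1.60 (adjusted p = 1.4e-09), 5 members were higher, and over all genes 6015 were higher and 4487 lower. The unknown depth and the 2 decimals of FPKM limit what can be said of genes under 0.1 FPKM.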
